A study of Homo sapiens with 12 samples.

Results

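The unfolded protein and integrated stress response genes described here are 41 named genes, taken from the 61533 gene entries of each library by matching gene identifiers to symbols. They fall into an arm of 19 genes around the transcription factor ATF4 and an arm of 22 genes of the endoplasmic reticulum (ER). RNA was sequenced from 12 libraries of 4 lines derived from HMLE, which are mammary epithelial cells of human origin made immortal by telomerase and SV40 antigens. The control line carried a control construct, the CT83 line the cancer/testis gene CT83, the HORMAD1 line the meiotic chromosome axis gene HORMAD1, and the double line both genes. All 4 lines were selected with puromycin, and each had 3 libraries. Each construct is represented by a single line, so transgene effects and line differences cannot be told apart. The labels do not say whether replicates were separate cultures, so the spread that p-values measure here may be technical.

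When unfolded protein builds up in the ER, the sensors PERK (EIF2AK3), IRE1 (ERN1) and ATF6 are activated. ATF6 and the spliced form of XBP1 induce chaperones, folding enzymes and degradation factors, whereas PERK phosphorylates the initiation factor eIF2, which slows translation and favours that of ATF4. Other kinases that sense lack of amino acids, haem or the presence of double-stranded RNA act on the same factor, and ATF4 induces genes of amino acid synthesis and transport, a response called the integrated stress response.

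The libraries held 9898845 to 14159740 counts. HORMAD1 had 0 counts in all control and CT83 libraries and 202.8 to 346.5 normalised CPM (counts scaled to a common library size) where it was introduced, and CT83 had 0 in all control and HORMAD1 libraries. CT83 was at 400.2 to 723.7 CPM in the CT83 line (mean 523.4) and at 86.7 to 117.8 CPM in the double line (mean 101.9), without overlap. The double line therefore does not carry CT83 RNA at the level of the CT83 line, which bears on the interaction and on the double against the CT83 line. The 7 epithelial markers examined were present in every line. Their summed level was 7598 to 8107 CPM in control and 6271 to 7933 in the HORMAD1 line. It was 6690 to 7286 in the CT83 line and 6606 to 7570 in the double line, both wholly below control. The 4 fibroblast markers summed to 3.50 to 8.51 CPM in the control line, 1.47 to 2.49 in the CT83 line, 1.16 to 3.44 in the HORMAD1 line and 3.33 to 5.94 in the double line. Leukocyte markers summed to at most 3.19 CPM and endothelial markers to at most 1.35 CPM, and PTPRC, which defines leukocytes, was at 0 in 11 of 12 libraries. The part of these marker levels in the results below was not tested. In these bulk samples, fewer cells of a type and less RNA per cell cannot be told apart.

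The question of the design was what each gene does and whether both cooperate. In the fit of all 12 libraries, no comparison called a difference in these stress genes. The HORMAD1 and CT83 lines were compared with each other only in the test for any difference among the 4 lines. Of the 41 members, 40 had enough counts to be tested, and 0 passed an adjusted p under 0.05 in any of 7 comparisons (edgeR's quasi-likelihood test, Benjamini-Hochberg adjustment over 15616 genes). DESeq2 and limma-voom also called 0 members. Few genes were called at all: 0.0064% of the genes tested in the CT83 line against control, 0.0064% in the HORMAD1 line and 0.0256% in the double line, the transgenes included. The share was 0% for the interaction, 0.0064% for the double against the CT83 line, 0.0448% for the double against the HORMAD1 line and 0.0448% for any difference among the 4 lines. A p that misses the threshold does not show that the lines were alike. The median standard error (SE) of a log2 fold change over all genes was 0.152 in the CT83 line against control.

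In the promoters, ER-arm members carried the sequence elements through which ATF6 and XBP1 are known to act. RefSeq promoters (GRCh38.p14) were found for 17 of the 19 ATF4-arm and 21 of the 22 ER-arm genes, and the 250 bases before the start were searched on both strands. The ER stress response element, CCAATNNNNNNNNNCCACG, was in 6 of 21 ER-arm promoters (28.6%), in 0 of 17 of the ATF4 arm and in 22 of 27305 promoters overall (0.0806%). A second form, ATTGGNCCACG, was in 3 of 21 ER-arm promoters (14.3%), again 0 of 17 in the ATF4 arm, and 14 promoters overall (0.0513%). Its CCAAT part overlaps the CCAAT box, CCAAT, which was in 18 of 21 ER-arm, 9 of 17 ATF4-arm and 33.0% of all promoters. The core TGACGTG of a further element was in HYOU1 alone of the 21 (1.71% of all promoters). The C/EBP-ATF response element TGATGNAA, which ATF4 binds, was in 3 of 17 ATF4-arm promoters (17.6%), in HERPUD1 of the ER arm and in 3.19% of all promoters. A match is a description of letters, not evidence of binding. The elements were known beforehand from genes of this response, so their share among the members is background and not a result of these libraries. The windows below show, 5′ to 3′ on the strand of the gene, examples of members with an ER stress or C/EBP-ATF element, in capitals. HYOU1, HSP90B1 and CRELD2 also held an ER stress element and are not shown. HSPA5 lies at chr9:125241381-125241419, minus strand, XBP1 at chr22:28800593-28800631, minus strand, CANX at chr5:179698768-179698806, plus strand and CALR at chr19:12938374-12938412, plus strand, the last with the element reversed. HERPUD1 (chr16:56931956-56932045, plus strand) holds the reversed C/EBP-ATF element and then the second ER element. SDF2L1 (chr22:21642104-21642134, plus strand) holds the second element reversed, and ASNS (chr7:97872459-97872486, minus strand), ATF3 (chr1:212565206-212565233, plus strand) and CHAC1 (chr15:40953252-40953279, plus strand, reversed) hold the C/EBP-ATF element.
HSPA5: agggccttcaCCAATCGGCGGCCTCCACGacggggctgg
XBP1: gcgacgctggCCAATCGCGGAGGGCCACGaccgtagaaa
CANX: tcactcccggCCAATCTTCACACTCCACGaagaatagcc
CALR: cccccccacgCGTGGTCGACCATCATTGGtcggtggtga
HERPUD1: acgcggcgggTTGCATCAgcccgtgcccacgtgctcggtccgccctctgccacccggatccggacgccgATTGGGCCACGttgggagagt
SDF2L1: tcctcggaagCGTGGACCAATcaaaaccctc
ASNS: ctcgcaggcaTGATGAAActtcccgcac
ATF3: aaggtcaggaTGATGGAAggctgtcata
CHAC1: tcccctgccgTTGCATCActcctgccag

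Both arms were expressed over a wide range of levels. Levels were divided by the merged length of all annotated exons of a gene, which can exceed the length of its main transcript. The order of genes and the arm medians given here therefore depend on the annotation. Per kilobase of exon, the highest mean level over 12 libraries in the ATF4 arm was that of DDIT4, an inhibitor of mTORC1 signalling (330 CPM per kilobase). The amino acid transporter SLC7A5 (242) and ATF4 itself (135) came next. The lowest tested were the lipoprotein receptor VLDLR (0.15), the glutathione-degrading enzyme CHAC1 (4.3) and the secreted glycoprotein STC2 (5.1). In the ER arm the lectin chaperone CALR (299), the Hsp70 chaperone HSPA5, also called BiP (272), and the Hsp90 chaperone HSP90B1 (124) were highest. The stress sensors ERN1 (0.90) and EIF2AK3 (2.7) and the co-chaperone DNAJB9 (4.4) were lowest. The median was 26.8 CPM per kilobase in the ATF4 arm and 16.3 in the ER arm. The asparagine synthetase ASNS, a classical ATF4 target whose element is printed above, is listed at 0 in all 12 libraries. So are SDHA, RPL17 and RPS10, which every cell uses, and 3782 of 19854 protein-coding genes, so nothing can be said of its expression.

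**Figure D1:**
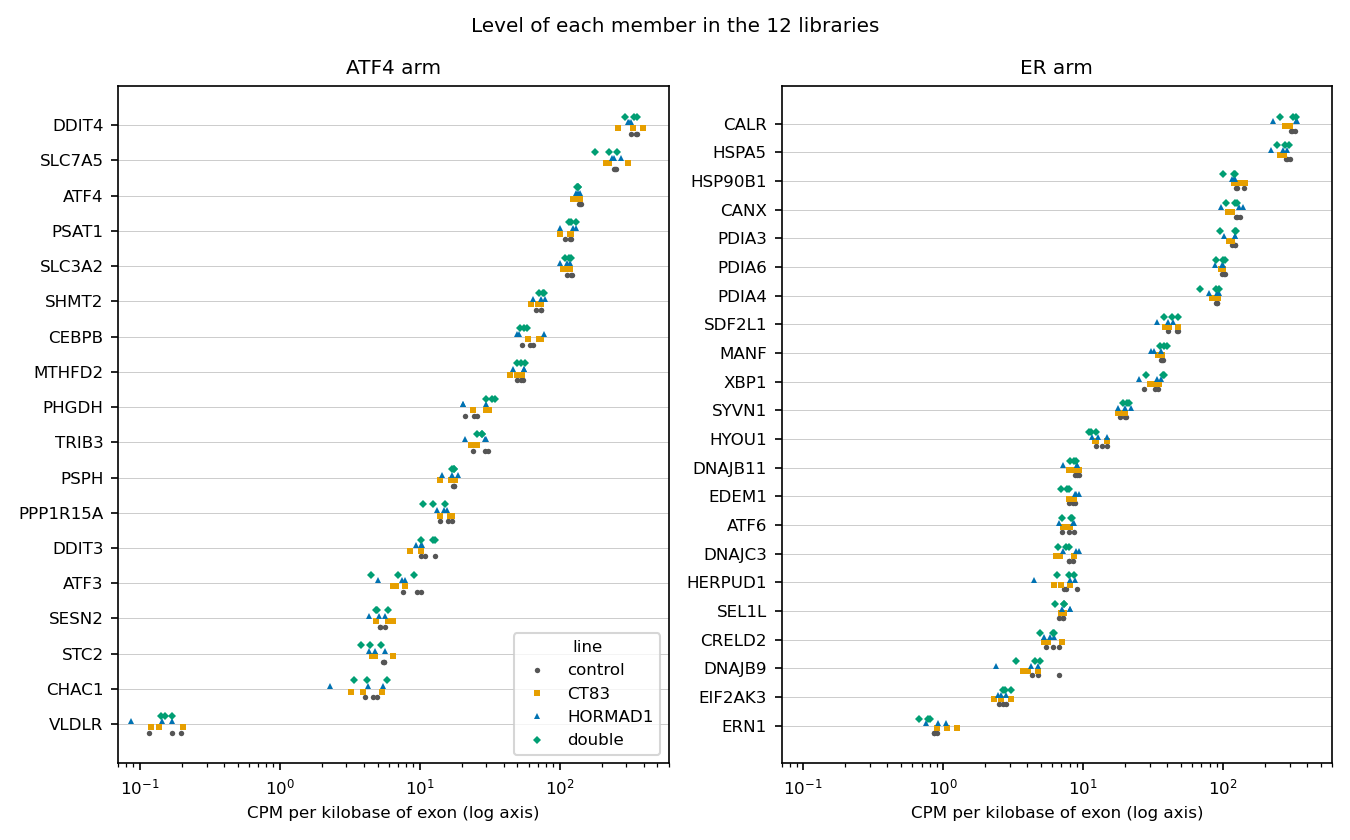
Level of the 40 tested members in CPM per kilobase of exon (log axis), ATF4 arm left and ER arm right, 1 point per library with colour and shape giving the line. The levels span from 0.15 (VLDLR) to 330 (DDIT4) CPM per kilobase on average, while the 4 lines of a gene lie close together.

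The line means of a gene were close to each other. The highest line mean exceeded the lowest by a median of 1.13-fold over the 40 members, from 1.03-fold (ATF6) to 1.43-fold (ERN1), and by at least 1.2-fold in 10. The control line had the highest mean in 20 members and the lowest in 1 (XBP1), but the 3 comparisons against control share its libraries. The CT83 line was lowest in 15, the HORMAD1 line in 14 and the double line in 10. The order of lines was not counted over all genes, so nothing about the members is concluded from these counts.

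Among the transcription factors of the integrated stress response, ATF4 was at 354, 347 and 356 CPM in control replicates 1 to 3, at 325, 315 and 353 in the CT83 line, at 331, 338 and 349 in the HORMAD1 line and at 339, 341 and 334 in the double line. Only the double line lay wholly below control, with a log2 fold change of -0.06 (SE 0.07). ATF4 is controlled largely in translation, which RNA does not measure. DDIT3, the factor CHOP of prolonged stress, was at 14.18, 13.5 and 16.8 CPM in control, 11.1, 11.2 and 13.4 in the CT83 line, 12.2, 13.6 and 13.3 in the HORMAD1 line, and 16.8, 16.3 and 13.4 in the double line. The CT83 libraries were all below control, and the other 2 lines overlapped it. The log2 fold change of DDIT3 in the CT83 line was -0.32 (SE 0.14; unadjusted p = 0.03995, edgeR adjusted p = 0.984). Its interaction estimate was 0.57 (SE 0.20, edgeR adjusted p = 0.841). DDIT3 shares exonic bases with MARS on the opposite strand, which had 28304 counts over 12 libraries against 1922, and without known use of strand their reads cannot be told apart.

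ATF3, a factor induced by many stresses, had 30.9, 41.6 and 38.8 CPM in control and 31.6, 27.1 and 26.0 in the CT83 line. It had 20.4, 29.99 and 31.9 CPM in the HORMAD1 line and 28.2, 37.0 and 18.0 in the double line. It varied more within lines than most members, and each line overlapped control. The log2 fold changes were -0.39, -0.44 and -0.41 (SE 0.23 each) in the CT83, HORMAD1 and double lines. CEBPB, a C/EBP factor that pairs with ATF4, was at 120, 125 and 106 CPM in control, 144, 140 and 116 in the CT83 line, 151, 101 and 96.8 in the HORMAD1 line, and 114, 109 and 102 in the double line. HORMAD1 replicate 1 was the highest of all 12 and the other HORMAD1 libraries were the lowest. The log2 fold change of CEBPB was 0.19 (SE 0.15) in the CT83 line, -0.01 (SE 0.15) in the HORMAD1 line and -0.11 (SE 0.15) in the double line. CEBPB overlaps CEBPB-AS1 on the opposite strand, which held 52.5% as many counts.

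The feedback regulators of the pathway showed small differences. TRIB3, a pseudokinase that inhibits ATF4 and CHOP, had a log2 fold change of -0.18 (SE 0.12) in the CT83 line, with 99.9, 82.4 and 106 CPM in control and 88.4, 87.0 and 79.7 in the CT83 libraries, which overlap. PPP1R15A (GADD34), the phosphatase subunit that reverses eIF2 phosphorylation, was at 43.1, 52.7 and 49.3 CPM in control, and at 38.3, 46.9 and 32.8 in the double line, which overlap. Its log2 fold change there was -0.30 (SE 0.13; unadjusted p = 0.03833, edgeR adjusted p = 0.870), while it was 0.02 in the CT83 line and -0.10 in the HORMAD1 line.

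The serine and one-carbon enzymes, which ATF4 induces to supply serine, glycine and folate-bound carbon, had the largest positive difference from control. PHGDH, the first enzyme of serine synthesis, was at 225.5, 194 and 237 CPM in control, 291, 275 and 223 in the CT83 line, 274, 186 and 189 in the HORMAD1 line, and 318, 275 and 301 in the double line. All 3 double libraries lay above all control libraries and above the HORMAD1 libraries, and the CT83 and HORMAD1 lines overlapped control. The log2 fold change of PHGDH in the double line was 0.45 (SE 0.14; unadjusted p = 0.008616, edgeR adjusted p = 0.797), and against the HORMAD1 line it was 0.46 (SE 0.15; unadjusted p = 0.007136, edgeR adjusted p = 0.397). In the CT83 line it was 0.26 (SE 0.14). The interaction estimate for PHGDH was 0.19 (SE 0.20). In GENCODE 29 (GRCh38), PHGDH lies on chromosome 1, 119648411 to 119744226, plus strand, and its exons overlap no other gene. The next enzymes differed less: in the double line PSAT1 was 0.08 (SE 0.10), SHMT2 0.07 (SE 0.09), PSPH 0.00 and MTHFD2 0.01 on the log2 scale. All 5 were above 0 there, and 1 of 5 in the CT83 line and 2 of 5 in the HORMAD1 line.

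**Figure D2:**
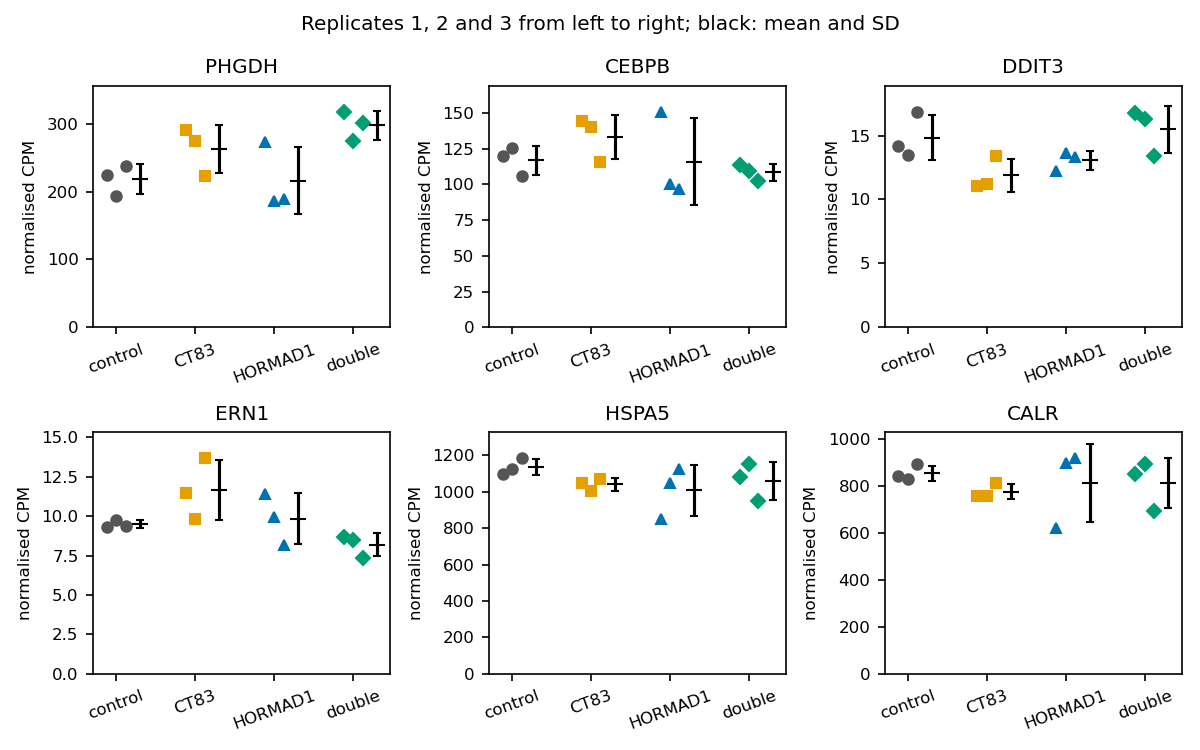
Normalised CPM of PHGDH, CEBPB, DDIT3, ERN1, HSPA5 and CALR in the 3 libraries of each line (coloured points, replicates 1 to 3 from left to right), with the mean and SD in black on axes that start at 0. The double line lies above control for PHGDH, and HORMAD1 replicate 1 stands apart from its line for PHGDH, CEBPB, HSPA5 and CALR.

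The effectors, secreted and transport genes of the ATF4 arm were near control. The mTORC1 inhibitor SESN2 had a log2 fold change of 0.11 (SE 0.14) in the CT83 line, the largest after PHGDH and CEBPB in that arm. In the HORMAD1 line the lowest after ATF3 were VLDLR (-0.30, SE 0.35), at 0.81 to 1.91 CPM over all libraries, and CHAC1 (-0.20, SE 0.29), at 4.72 to 11.9 CPM. The highest there were PSAT1 (0.04), SLC7A5 (0.02) and SHMT2 (0.01). STC2 was at 33.6, 34.1 and 34.1 CPM in control and 23.3, 32.4 and 27.0 in the double line, wholly below control, with a log2 fold change of -0.30 (SE 0.15). The transporter pair SLC3A2 and SLC7A5 carries large neutral amino acids into the cell. SLC3A2 lay between -0.10 and -0.04 against control and SLC7A5 between -0.18 and 0.02 on the log2 scale.

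Of the ER sensors, ERN1 differed the most between lines. It was at 9.33, 9.79 and 9.35 CPM in control, 11.5, 9.86 and 13.7 in the CT83 line, 11.4, 9.93 and 8.16 in the HORMAD1 line, and 8.70, 8.51 and 7.35 in the double line. The CT83 line was wholly above control and the double line wholly below, while the HORMAD1 line overlapped it. The log2 fold change of ERN1 was 0.30 (SE 0.16) in the CT83 line, 0.06 (SE 0.16) in the HORMAD1 line and -0.21 (SE 0.17) in the double line, with an interaction of -0.56 (SE 0.23; unadjusted p = 0.02836, edgeR adjusted p = 0.841). EIF2AK3 was at 12.6 to 16.5 CPM in the 12 libraries and had a log2 fold change of 0.09 (SE 0.13) in the double line. ATF6 was at 53.5 to 68.2 CPM, with log2 fold changes between -0.03 and 0.01. Total XBP1 RNA, the substrate of IRE1, had log2 fold changes of 0.04 in the CT83 line, 0.00 in the HORMAD1 line and 0.13 (SE 0.14) in the double line. The spliced form of XBP1 cannot be seen in counts per gene.

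The ER chaperones are the classical targets of the unfolded protein response. HSPA5 was at 1099, 1126 and 1184 CPM in control, 1049, 1004 and 1072 in the CT83 line, 853, 1049 and 1124 in the HORMAD1 line, and 1083, 1154 and 948 in the double line. The CT83 line was wholly below control, and the other 2 overlapped it. Its log2 fold changes were -0.13, -0.17 and -0.10 (SE 0.10 each) in the CT83, HORMAD1 and double lines. The lectin chaperone CANX had 786, 774 and 820 CPM in control and 720, 675 and 725 in the CT83 line, without overlap (log2 fold change -0.17, SE 0.11). Its partner CALR had 840, 829 and 890 CPM in control and 755, 756 and 811 in the CT83 line, also without overlap (-0.14, SE 0.13). The chaperone HYOU1 had 106, 114 and 95.7 CPM in control and 84.1, 95.6 and 87.8 in the double line. The double libraries lay wholly below control (log2 fold change -0.24, SE 0.11; unadjusted p = 0.0407, edgeR adjusted p = 0.871). HSP90B1 was -0.20 (SE 0.10) in the double line. Its exons overlap C12orf73 on the opposite strand, which held 82.1% as many counts. Genes on the opposite strand that overlap DNAJB11, MTHFD2, CRELD2 and EIF2AK3 held 131%, 65.7%, 64.0% and 54.3% as many counts as these members.

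Among the folding helpers and degradation factors, DNAJB9 and HERPUD1 spread the most within lines (SD 0.35 and 0.31 on the log2 scale). EDEM1 spread the least (0.07). DNAJB9, a co-chaperone that represses IRE1, was at 12.2, 13.6 and 19.1 CPM in control and 6.81, 13.4 and 12.02 in the HORMAD1 line, which overlap. Its log2 fold changes were -0.33, -0.49 and -0.31 (SE 0.24 each) in the CT83, HORMAD1 and double lines. Its exons overlap PNPLA8 on the opposite strand. HERPUD1, which helps assemble the degradation complex, was at -0.18 (SE 0.21) in both the CT83 and the HORMAD1 line. SDF2L1, a partner of the J proteins, was -0.19 (SE 0.12) in the HORMAD1 line. SEL1L and EDEM1, of the degradation pathway, had the largest positive values in the HORMAD1 line, 0.13 (SE 0.09) and 0.11 (SE 0.08), and SEL1L was at 0.02 in the CT83 line. EDEM1 was at 58.7, 56.7 and 53.2 CPM in control and 60.35, 63.45 and 58.8 in that line, wholly above. SYVN1, the ubiquitin ligase, was 0.07 (SE 0.09) in the double line and shares exonic bases with FAU on the same strand. The disulfide isomerases PDIA3, PDIA4 and PDIA6 lay between -0.10 and -0.04 against control.

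**Figure D3:**
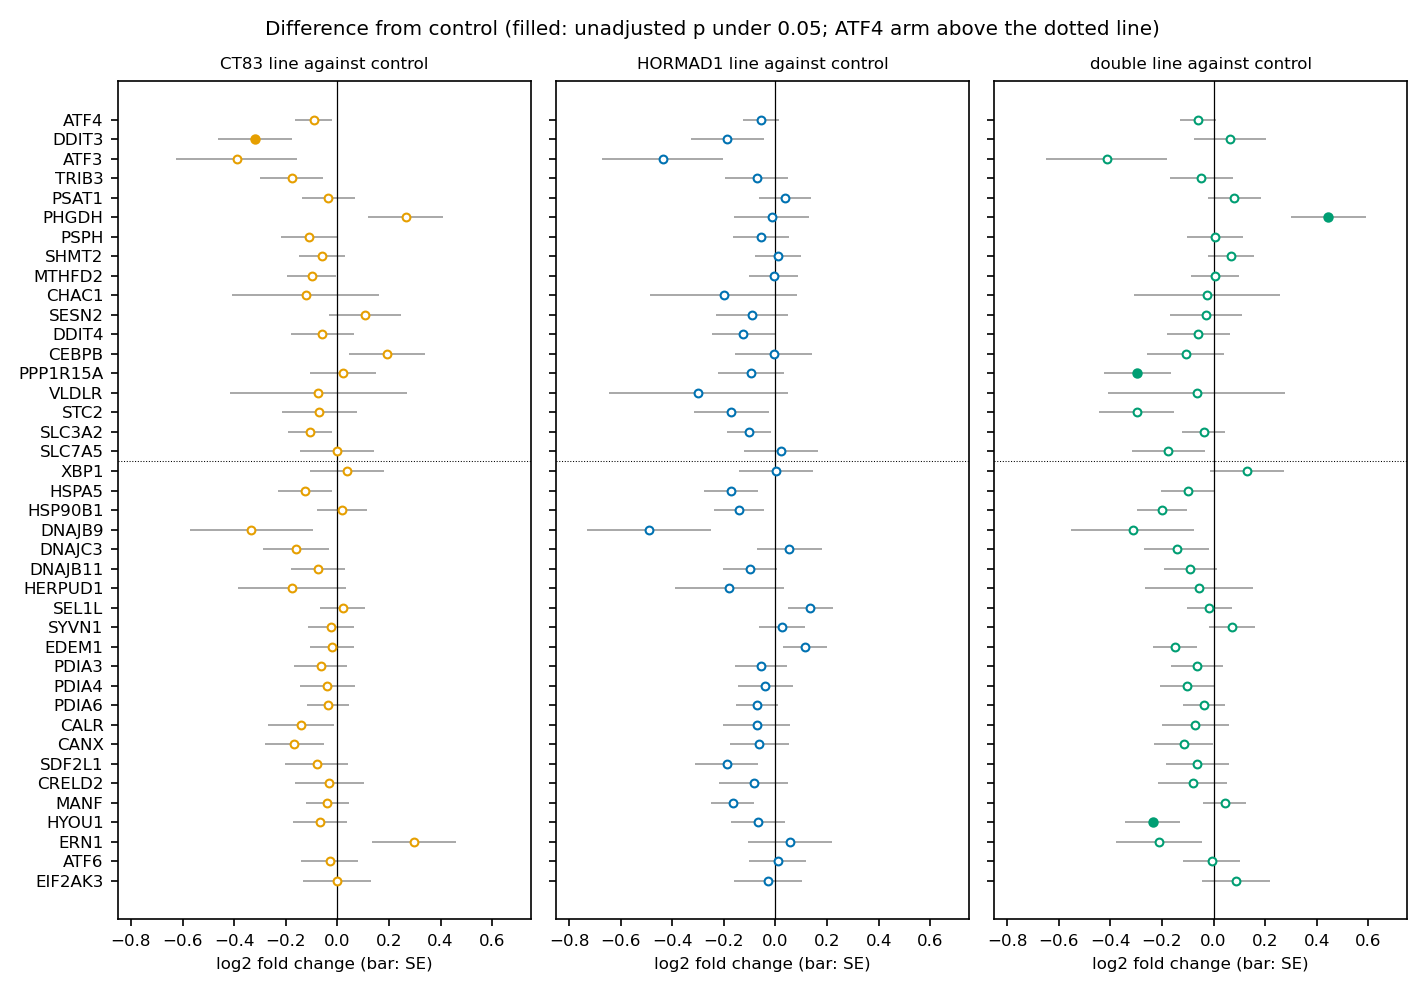
Log2 fold change of the 40 tested members against control in the CT83, HORMAD1 and double lines (points, bars are 1 SE from the fit), ATF4 arm above the dotted line, ER arm below. Filled points have an unadjusted p under 0.05 (1, 0 and 3 members), and most points lie slightly left of 0.

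At an unadjusted p under 0.05, the members are set beside all genes tested. In the CT83 line against control 1 member passed (DDIT3, lower), beside 2.74% of all genes, in the HORMAD1 line 0, beside 1.82%, and in the double line 3 (PHGDH higher, PPP1R15A and HYOU1 lower), beside 5.56%. The interaction had 2 (DDIT3 and ERN1), beside 4.5%. The double against the CT83 line had 4 (DDIT3 higher, and ERN1, PPP1R15A and HSP90B1 lower), beside 8.05%, the double against the HORMAD1 line 3 (PHGDH and MANF higher, EDEM1 lower), beside 7.59%, and any difference among lines 1 (PHGDH), beside 4.83%. Counts of members whose libraries did not overlap are given in the same way. In the CT83 line 1 of 40 members was wholly above control (ERN1), where 4.73% of all genes were, and 5 were wholly below (DDIT3, CANX, CALR, HSPA5 and PDIA3), where 5.73% were. In the HORMAD1 line 1 was above (EDEM1), beside 4.25%, and 3 were below (MANF, HSP90B1 and DDIT4), beside 3.32%. In the double line 1 was above (PHGDH), beside 7.61%, and 5 were below (STC2, HYOU1, ERN1, HSP90B1 and ATF4), beside 7.83%.

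As arms, both were slightly below control in each line, by less than single libraries differed. The median log2 fold change of the ATF4 arm was -0.07, -0.08 and -0.04 in the CT83, HORMAD1 and double lines, with 14, 15 and 12 of 18 members below 0. That of the ER arm was -0.04, -0.06 and -0.08, with 18, 15 and 18 of 22 below 0. Of all genes, 48.4%, 48.0% and 50.3% were below 0, and their medians lay within 0.01 of 0. The 3 comparisons share the control libraries. Within lines, the median of an arm varied between libraries with an SD of 0.08 (ATF4 arm) and 0.10 (ER arm) on the log2 scale. Without HORMAD1 replicate 1 the ER-arm median of the HORMAD1 line was 0.03 and its ATF4-arm median -0.03. Without double replicate 3 those of the double line were 0.01 and -0.003071.

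Over both arms, many members were low together, by the most in 2 libraries, HORMAD1 replicate 1 and double replicate 3. In the ATF4 arm alone, CT83 replicate 3 was lower (median deviation -0.13) than double replicate 3 (-0.04). Of its 18 tested ATF4-arm members, 11 were below both other CT83 libraries and 7 above both, at a median of 87.8% of their mean. Of all genes, 40.6% were below both and 41.1% above. In CT83 replicate 2, 28 of the 40 members also lay below their 12-library mean, against 48.7% of all genes. The median deviation of the members was -0.05 there, beside -0.17 in HORMAD1 replicate 1 and -0.14 in double replicate 3. In HORMAD1 replicate 1, 35 of the 40 members (87.5%) lay below their 12-library mean, against 47.9% of all genes, and 17 were the lowest of 12 (42.5% against 16.7%). Of the 22 ER members, 19 were below both other HORMAD1 libraries, at a median of 83.8% of their mean, and of the 18 tested ATF4-arm members 14 were, at a median of 84.8%, where 42.1% of all genes were. In double replicate 3, 30 of 40 members lay below their mean (49.8% of all genes), and 16 of 22 ER members were below both other double libraries, at a median of 85.1% of their mean, and 11 of 18 ATF4-arm members were, at 92.5%, where 35.1% of all genes were. The 9 ER members with one of the ER stress elements, 6 of which are printed above, were all below their mean in both libraries, as were 11 and 9 of the other 13. Their median deviation was -0.31 and -0.19, beside -0.15 and -0.11 for the others, on the log2 scale. HSP90B1, which holds an element, was nevertheless above both other HORMAD1 libraries in HORMAD1 replicate 1 (567 CPM against 541 and 557). Both libraries were picked because members were low in them, so these values only describe them. The part of the elements was not tested.

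**Figure D4:**
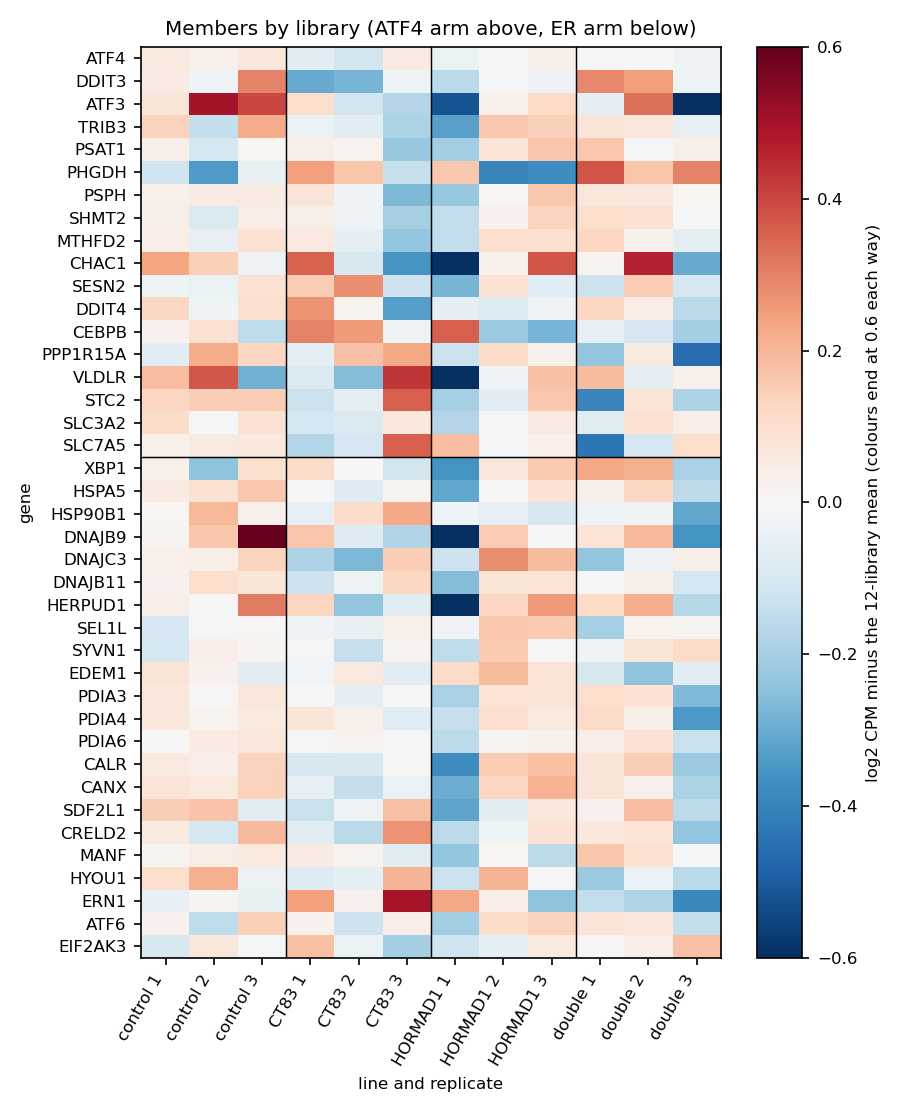
Log2 CPM of each tested member minus its 12-library mean, by library (columns, 3 per line) and gene (rows, ATF4 arm above the line and ER arm below). HORMAD1 replicate 1 and double replicate 3 are blue, below the mean, over most ER rows.

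These 2 libraries differed in another measure. The slope of log2 CPM on exon length over all genes was positive in HORMAD1 replicate 1 (0.07 per doubling), in CT83 replicate 3 (0.06) and control replicate 2 (0.03) and near 0 in double replicate 3 (-0.0009176). Ribosomal protein genes, 75 tested, deviated by -0.21 in HORMAD1 replicate 1, by -0.23 in CT83 replicate 3 and by 9.448e-05 in double replicate 3. The ER-arm median deviation was -0.17, 0.01 and -0.16 in the same libraries, and the ATF4-arm median was -0.17, -0.13 and -0.04. The part of the length trend and of RNA quality in these low levels was not tested.

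**Figure D5:**
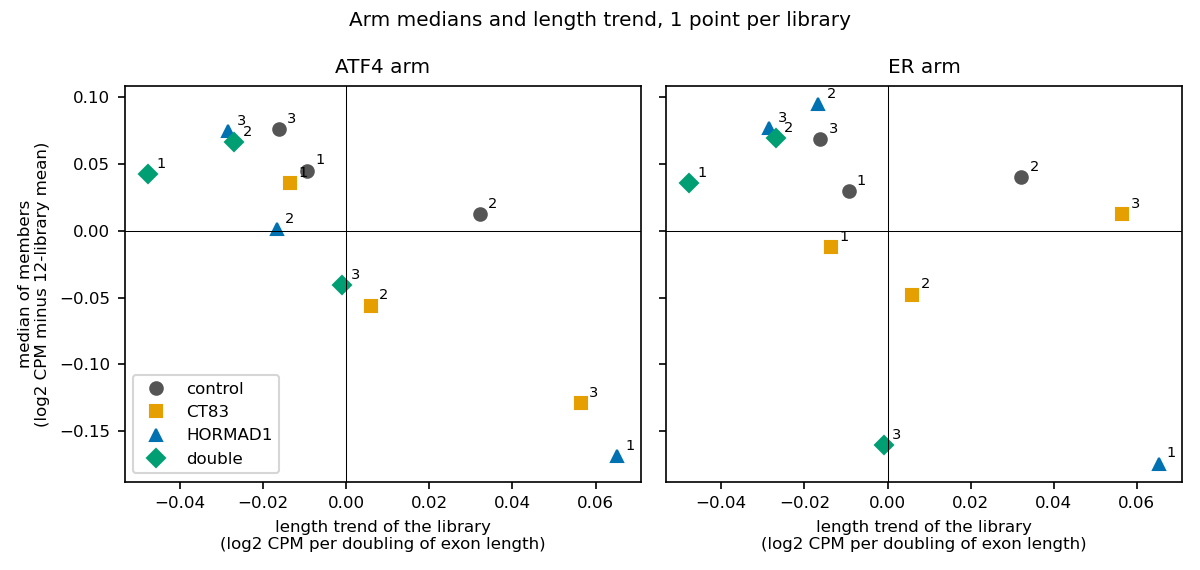
Median deviation of the arm (log2 CPM minus the 12-library mean) against the trend of log2 CPM on exon length in each library, 1 point per library numbered by replicate, ATF4 arm left and ER arm right. CT83 replicate 3 and HORMAD1 replicate 1 are far right. In the ER arm HORMAD1 replicate 1 and double replicate 3 are both low, at different length trends.

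Without control replicate 2, CT83 replicate 3 and HORMAD1 replicate 1, which have the most positive length trends, members passed the test in 5 of the 7 comparisons. Those 3 libraries were chosen from earlier results of these data, so the calls describe the 9 remaining ones. Double replicate 1, with a slope of -0.05 per doubling, steeper in size than that of control replicate 2, was kept. CEBPB was then higher in the CT83 line than in control (log2 fold change 0.34, SE 0.08, edgeR adjusted p = 0.03991), where 0.76% of all genes were called, and lower in the double than in the CT83 line (-0.39, SE 0.07, adjusted p = 0.01127), where 0.466% were. PHGDH was higher in the double line than in control (0.36, SE 0.07, edgeR adjusted p = 0.03153), where 0.083% were called, and than in the HORMAD1 line (0.66, SE 0.07, adjusted p = 3.203e-06), where 2.16% were. For any difference among lines, PHGDH, CEBPB and the co-chaperone DNAJC3 passed (edgeR adjusted p = 9.294e-06, 0.001473 and 0.04091), beside 3.82% of all genes. In the HORMAD1 line PHGDH was at -0.30 (SE 0.07, edgeR adjusted p = 0.392), and the interaction was 0.38 (SE 0.10, adjusted p = 0.221). Without HORMAD1 replicate 1 alone, PHGDH was higher in the double than in the HORMAD1 line (0.66, SE 0.11, edgeR adjusted p = 0.02408), where 0.246% of genes were called. Leaving out any other single library called no member in that comparison. HORMAD1 replicate 1 was at 274 CPM for PHGDH, against 186 and 189 in its line. Both fits therefore lack the HORMAD1 value nearest the double line, and their PHGDH calls are no independent support.

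Other genes of the pathway, from lists that hold no member, gave no calls either. Of 40 further ATF4-arm genes 37 could be tested, of 15 eIF2 kinases and eIF2 machinery genes 14, and of 60 further ER folding and degradation genes 56. In none of the 7 comparisons did a gene of these lists pass an adjusted p under 0.05 in edgeR's test. Their medians against control lay between -0.02 and 0.03, between -0.06 and 0.01 and between -0.03 and 0.02. At an unadjusted p under 0.05, the CT83 line had 0 of these genes, beside 2.74% of all genes. The HORMAD1 line had 3, all higher, beside 1.82%, and the double line 3, of which 2 were higher and 1 lower, beside 5.56%. In the double against the HORMAD1 line 7 of the 37 further ATF4-arm genes passed, 6 lower and 1 higher, beside 7.59%. Their median there was -0.05, and 26 of the 37 were below 0, beside 51.9% of all genes. Of the 14 eIF2 genes 2 passed there, and of the 56 further ER genes 0. In the same order of lists, the double against the CT83 line had 3, 2 and 0, beside 8.05%, and the interaction 2, 2 and 1, beside 4.5%. The seryl-tRNA synthetase SARS1, chosen after its values were seen, was at 332, 285 and 345 CPM in control and 454, 400 and 384 in the double line. These do not overlap (log2 fold change 0.36, SE 0.10, edgeR adjusted p = 0.712). ALDH1L2, a mitochondrial folate enzyme of the one-carbon pathway, chosen likewise, was at 7.58, 10.4 and 9.77 CPM in control and 6.57, 5.26 and 6.44 in the double line, without overlap (-0.60, SE 0.18, edgeR adjusted p = 0.735).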

How the data were processed

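Polyadenylated RNA was sequenced, with ERCC spike-in RNA added and NEBNext Ultra libraries, per the labels' protocols. Trimmomatic 0.39, STAR 2.7.5c, Picard and SAMtools and the builds hg38 and hg19 are named in the submitters' processing notes. For the counter, the annotation and strandedness, the entry is: not given in the sources used here. Deposited by the authors were expected counts (estimated counts that need not be whole), which were rounded, changing 6.75% of values. No ERCC entries were present (0). Of 61533 identifiers, 61369 matched a symbol and 58312 were in GENCODE 29, the source of exon lengths.

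In R 4.3.3, edgeR 4.0.16 was run with filterByExpr (minimum count 10, 15616 genes), TMM, a robust quasi-likelihood fit of 12 libraries with 1 mean per line, and Benjamini-Hochberg adjustment, called under 0.05. Log2 CPM used a prior count of 2. Alternatives were DESeq2 1.42.0, limma-voom (limma 3.58.1), other scalings and filters, a length offset, a replicate block, only the groups compared, and left-out libraries. The fit was tested on simulated data. The members and lists were chosen with earlier results of these data known. Members named were those called, those with an unadjusted p under 0.05, the 3 highest and 3 lowest log2 fold changes per arm against control, and the 3 highest and 3 lowest levels per arm. Others are named for their role or because their libraries did not overlap, after their values were seen.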

Additional observations from a re-analysis of the deposited data

How the results depend on the processing

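Precision is limited by 3 libraries per line, of 9898845 to 14159740 counts. Length trends also differed between libraries, and their part in the spread was not tested. Members called were 0 in all 7 comparisons under other scalings, filters, DESeq2, limma-voom, the length offset and the replicate block, and in the 5 that could be fitted with only the groups compared. Without the 3 libraries with the most positive length trends, members called were 1 in the CT83 line, 1 in the double line, 1 in the double against the CT83 line, 1 in the double against the HORMAD1 line and 3 for any difference. All genes called then were 119, 6 and 13 in the CT83, HORMAD1 and double lines, 22 for the interaction, 73 and 339 for the double against the CT83 and HORMAD1 lines, and 599 for any difference. The ATF4-arm median was 0.02337 for the interaction and -0.03692 for the double against the HORMAD1 line. The ER-arm median was -0.09774, 0.02358 and -0.09831 in the CT83, HORMAD1 and double lines, 0.001598 for the interaction, and 0.04465 and -0.09656 for the double against the CT83 and HORMAD1 lines. The cause was not tested.

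Genes called also moved elsewhere, in the order CT83, HORMAD1 and double line against control, interaction, double against CT83, double against HORMAD1 and any difference. They were 0 in the first, 12 in the third, 2, 0, 99 and 59 in the last 4 with no low-count filter. With DESeq2 they were 2 in the second, and 3, 3, 57 and 21 in the last 4. With limma-voom they were 2 in the third, and 2, 3 and 2 in the last 3. Upper-quartile scaling gave 2 for any difference. With only the groups compared they were 0 in the first 2 and 1 for the double against the HORMAD1 line. That fit could not be made for the interaction and any difference, which use all lines. With the replicate block they were 2 for the double line, 2 for the double against the CT83 line, 1 for the double against the HORMAD1 line and 2 for any difference. Of 18 correlations between the deviations of same-numbered samples, from -0.638 to 0.715, 6 were over 0.1. The deviations include the length trends of single libraries, so these values do not settle whether same-numbered samples pair.

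Leaving out 1 library gave 0 to 1 genes for CT83, 1 to 2 for HORMAD1, 1 to 5 for double, 0 for the interaction, 1 to 2 and 0 to 39 for the double against the CT83 and HORMAD1 lines, and 1 to 23 for any difference, the 39 and 23 without HORMAD1 replicate 1. Members called were 0 except 0 to 1 for the double against the HORMAD1 line. The ATF4-arm median ranged from -0.09682 to -0.02782, -0.1225 to -0.03263 and -0.07032 to -0.003071 against control, from 0.03635 to 0.169 for the interaction, and from 0.02117 to 0.1005 and -0.04212 to 0.1056 for the double against the CT83 and HORMAD1 lines. The ER-arm median ranged from -0.06402 to -0.03564, -0.1033 to 0.02584 and -0.1366 to 0.01338 against control, from -0.03525 to 0.1239 for the interaction, and from -0.04517 to 0.06227 and -0.1018 to 0.06187 for the double against the single lines. Of the 36 named fold changes against control, 9 changed sign in at least 1 of 22 alternatives, and none of these had been called.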

Other observations

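GDF15, a secreted stress cytokine of the further ATF4-arm list, had 4.25, 4.37 and 5.06 CPM in control and 6.599, 7.95 and 4.30 in the CT83 line. It had 9.64, 5.496 and 4.56 CPM in the HORMAD1 line and 4.17, 3.51 and 3.93 in the double line, wholly below the other 3 lines. Its interaction estimate was -1.25 on the log2 scale (SE 0.39, edgeR adjusted p = 0.841). GDF15 was chosen after its values were seen.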
